A study of Mus musculus with 12 samples.

Results

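DNA methylation was followed at the promoters of 4 mouse genes that are used in the male germline, Tex101, Dpep3, Slc25a31 and Rpl10l, out of 3657 genes whose promoters were measured. The genes were chosen by name and not by a limit on their values, but with earlier results of these data known. Each promoter window covered 1000 bp before and 500 bp after the gene's start in the mouse build mm9. Within it, a cytosine was kept if its methylation reached 20% in at least 1 of 12 libraries, and the promoter level of a library is the mean over the kept cytosines that the library measured. A promoter counted as measured if it held at least 6 such cytosines, and each of the 4 genes had a level in each of the 12 libraries.

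Methylation was read by reduced representation bisulfite sequencing (RRBS), in which DNA is cut by MspI at CCGG, short fragments are kept, and bisulfite converts unmethylated cytosines so that the methylated share of each cytosine can be counted. Embryonic stem cells (ESCs), labelled wild type (WT), were diploid, androgenetic haploid (ahESC, a single genome from the father) or parthenogenetic haploid (phESC, a single genome from the mother), each at an early and a late passage, whose numbers the labels do not give. Whole embryos at E15.5, a day of embryonic development, were WT from a sperm and an oocyte, bimaternal (BM, a phESC injected into an oocyte) or bipaternal (BP, an ahESC and a sperm injected into an oocyte without its own nucleus), and the 3 brains came from a WT adult, a BM adult and a BM animal at E19.5. Knockouts of differentially methylated regions, which the labels do not name, are carried by each BM and BP sample, while the 6 ESC libraries, the WT embryo and the WT brain are labelled WT. The labels do not say how many animals or cell lines a library pooled, nor the sex or exact age of the animals.

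As a check of the labels, the promoter of Snrpn, an imprinted gene methylated on the maternal copy, stood at 67.7% in the WT, 44.2% in the BM and 0% in the BP embryo, and at 54.5% in early diploid cells. In early ahESCs it stood at 2.91%. The library taken as early phESC is titled pESC_early, where the late one is titled phESC_late, and it stood at 1.21%. A phESC genome is of maternal origin, so that library lacks the methylation of a maternal copy there. Late diploid cells had 0.96%. Results on phESCs are those of the libraries with these titles.

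There was 1 library per group, so no value below has a replicate error and no difference was tested; each comparison describes a pair of libraries. A difference of at least 25 percentage points over the cytosines measured in both libraries was counted as lower or higher. The deposited values are percentages without read counts, so the depth behind each is unknown. Within a library, the 2 strands of a CpG outside CCGG differed by 2.43 to 6.06 points on average at these promoters, which shows the scatter of single values but is not a replicate error.

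Tex101 encodes a glycoprotein on the surface of germ cells that sperm need to pass into the oviduct, and Dpep3 encodes a membrane dipeptidase of the testis that is anchored to the same surface and forms a complex with the Tex101 protein. Slc25a31, also called Ant4, encodes the ADP/ATP carrier of mitochondria in meiotic germ cells, and Rpl10l is an intronless copy of the X-linked gene Rpl10 that supplies a ribosomal protein in meiosis, when the X chromosome of the male is silent. Many genes of this kind have CpG-rich promoters that carry no methylation in germ cells that use them and are methylated in body cells, where they are silent.

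The sequences below are the stretches that hold many of the kept cytosines, written 5′ to 3′ on the strand of the gene with each CpG in capitals. They are given because the position of the measured cytosines differs between the genes. The first pair lies directly upstream of the start, and the other pair lies in the coding part of the only or first exon. The Tex101 and Slc25a31 stretches come from RefSeq (GRCm38.p6) and the other stretches from GENCODE M21 exons, and all were placed on mm9 by the exact pattern of listed cytosines.
Tex101, -200 to -1 bp, chr7:25457070-25457269, minus strand: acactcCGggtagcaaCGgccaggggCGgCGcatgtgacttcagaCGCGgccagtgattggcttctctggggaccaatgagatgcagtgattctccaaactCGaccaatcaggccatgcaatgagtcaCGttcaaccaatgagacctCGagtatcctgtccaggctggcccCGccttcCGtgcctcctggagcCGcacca
Slc25a31, -234 to -1 bp, chr3:40512543-40512776, plus strand: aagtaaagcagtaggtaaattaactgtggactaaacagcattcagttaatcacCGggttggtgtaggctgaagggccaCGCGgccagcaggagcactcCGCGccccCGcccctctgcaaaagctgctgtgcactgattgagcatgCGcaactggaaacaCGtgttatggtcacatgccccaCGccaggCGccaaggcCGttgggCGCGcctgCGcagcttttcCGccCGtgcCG
Dpep3, 192 to 293 bp, chr8:108503036-108503137, minus strand: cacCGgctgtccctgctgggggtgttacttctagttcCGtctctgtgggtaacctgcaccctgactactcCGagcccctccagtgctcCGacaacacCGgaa
Rpl10l, 379 to 503 bp, chr12:67384885-67385009, minus strand: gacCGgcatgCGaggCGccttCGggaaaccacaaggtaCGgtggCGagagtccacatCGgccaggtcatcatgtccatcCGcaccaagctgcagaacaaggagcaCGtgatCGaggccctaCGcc

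These stretches hold 12, 17, 5 and 11 CpGs, in the order shown, and 17, 27, 9 and 18 of the kept cytosines, counting both strands. Tex101 (window chr7:25456569-25458069) had 43 kept cytosines of 87 listed, from -194 to 487 bp, across the start, the noncoding exon 1 (chr7:25456971-25457069) and the intron behind it. Slc25a31 (chr3:40511777-40513277) had 88 of 202, from -280 to 474 bp, of which 47 lay in exon 1 (chr3:40512777-40513148). In Rpl10l (chr12:67384888-67386388) 31 of 32 lay in its single exon (chr12:67384366-67385388), 25 of them in coding sequence, and 1 lay upstream, at -94 bp. Dpep3 (chr8:108502829-108504329) had 9 of 20 listed, all between 195 and 290 bp in the coding part of exon 1 (chr8:108502914-108503329). The Dpep3 level therefore describes the beginning of the gene and not the sequence before its start. Where the sequence was known, all kept cytosines were CpGs except 1 in Slc25a31, at 257 bp, which stood at 40% in the WT embryo and at 0% in the BM and BP embryos.

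In the 300 bases from RefSeq around each start, Slc25a31 had 22 CpGs, Tex101 19, Rpl10l 13 and Dpep3 12, against a median of 7 over 32851 promoter sequences. The E-box letters CACGTG, searched on both strands, occurred once in Slc25a31, at -93 bp from the RefSeq start, and in 7.15% of all promoter sequences. The letters TCCCGC, which are part of E2F-type sites, occurred once in Slc25a31 (20 bp) and once in Rpl10l (-43 bp), and in 19.98% of all promoters on either strand. CCAAT occurred 4 times in Tex101 on either strand, between -144 and -65 bp, and in 37.4% of all promoters. The 3 sets of letters were picked with the sequences in view, and they are matches of letters only.

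Across the 6 ESC libraries the 4 promoters kept 1 order, with Dpep3 highest, then Tex101, Slc25a31 and Rpl10l. In early diploid cells the levels were 87.2% in Dpep3, 81.6% in Tex101, 46.9% in Slc25a31 and 33.1% in Rpl10l. In the 3 embryos and the E19.5 brain all of them stood at 88.8% or more and the order was lost. The ESC libraries thus spread the genes from 2.49% to 91.3%, while the embryos held them between 88.8% and 97.3%.

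**Figure D1:**
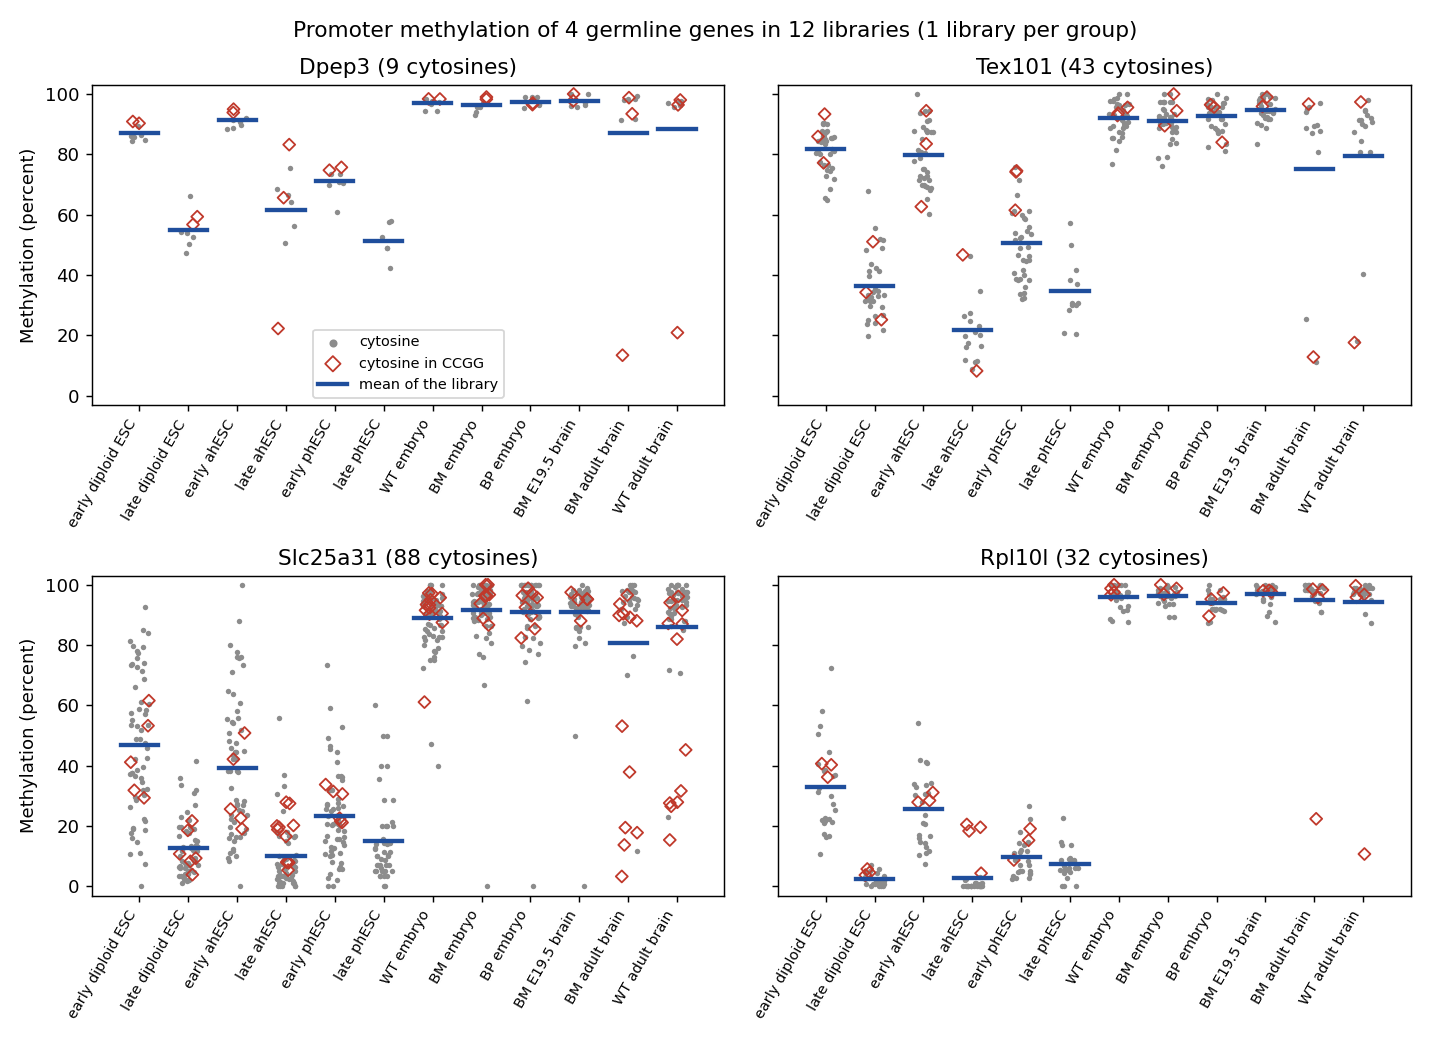
Methylation in percent (y axis) of each kept cytosine (grey points, or red diamonds for cytosines in CCGG) in each of the 12 libraries (x axis) at the 4 promoters; blue bars are the library means, with 1 library per group. The late ESC libraries lie lowest in each panel, the embryos lie near the top, and the lowest points of the adult brains include red diamonds.

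Tex101 stood at 81.6% in early and 36.3% in late diploid cells, at 79.8% in early and 21.8% in late ahESCs, and at 50.8% in early and 34.6% in late phESCs. It stood at 92.0% in the WT, 91.2% in the BM and 92.8% in the BP embryo, at 94.7% in the BM E19.5 brain, and at 75.1% in the adult BM and 79.5% in the adult WT brain. The late ahESC library was the lowest of the 12. Its 18 measured cytosines ran from 8.23% to 46.7%, and the 38 in early ahESCs from 60.4% upward. The ends of the late range are the 2 strands of 1 CCGG, at 20 and 19 bp. How many other promoters have separate ranges in these 2 libraries was not counted.

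Dpep3 stood at 87.2% and 55.1% in early and late diploid cells, at 91.3% and 61.5% in ahESCs and at 71.2% and 51.3% in phESCs. Its embryo levels were 96.9% (WT), 96.2% (BM) and 97.3% (BP), and its brain levels were 97.8% at E19.5, 87.0% in the BM adult and 88.4% in the WT adult. No library was under 51%, so Dpep3 was the gene that stayed above the midpoint of the scale in all 12. It was also the most even of the 4 promoters in early diploid cells, with single cytosines between 84.3% and 90.9%. That range covers 8 cytosines between 195 and 290 bp, fewer and over a shorter stretch than at the other genes.

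Slc25a31 stood at 46.9% and 12.7% in early and late diploid cells, at 39.4% and 10.2% in ahESCs and at 23.3% and 15.2% in phESCs. The embryos were at 88.8% (WT), 91.8% (BM) and 91.1% (BP), and the brains at 91.0% (BM E19.5), 80.7% (adult BM) and 85.9% (adult WT). The 6 ESC levels lay below all 6 levels of embryos and brains. Single cytosines were widely scattered in early diploid cells, up to 92.7%, with an SD of 22.7 points over 64 cytosines.

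Rpl10l stood at 33.1% and 2.49% in early and late diploid cells, at 25.7% and 2.66% in ahESCs and at 9.88% and 7.50% in phESCs. It was at 96.1% in the WT, 96.4% in the BM and 93.9% in the BP embryo, and at 97.0%, 95.1% and 94.4% in the E19.5, adult BM and adult WT brains. This was the widest span of the 4 genes. Among the measured promoters, Rpl10l was higher than 86.9% of them in early diploid cells, higher than 8.75% in late diploid cells and higher than 99.8% in the WT embryo. Rpl10l is a retrocopy, and whether reads of Rpl10 were placed on it was not tested.

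The promoters were next compared between passages. In diploid cells, late passage was lower by at least 25 points at all 4 genes, against 11.3% of 3399 promoters, and 0.0883% of promoters were higher. Tex101 fell by 44.8 points over 34 shared cytosines, Slc25a31 by 34.9 over 63, Dpep3 by 32.1 over 8 and Rpl10l by 30.6 over 28. The share of the early level that was left put the genes in another order. It was 63.2% in Dpep3, 44.7% in Tex101, 26.1% in Slc25a31 and 7.52% in Rpl10l. Nearly all measured cytosines were lower, with 34 of 34 shared cytosines in Tex101, 8 of 8 in Dpep3, 62 of 63 in Slc25a31 and 28 of 28 in Rpl10l. In Dpep3 none of these lay before the start of the gene. Within 250 bp of the start the Rpl10l difference was -21.1 points, short of the limit, which left 3 of the 4 genes. Over all listed cytosines, which include the C of GC near 0%, the 4 differences ran from -14.7 to -22.0 points and none passed. Cytosines of 1 promoter share their DNA molecules and are not replicates. The median difference over all promoters was -0.79 points, and most of these started low, at a median of 6.94%.

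In ahESCs, late passage was lower by at least 25 points at 2 of the 4 genes, against 7.17% of 3291 promoters, and higher at 0 of 4, against 0.912%. The median over all promoters was 7.67% in early ahESCs, so most of them could not fall by 25 points. Tex101 fell by 61.2 points over 18 shared cytosines, from 83.0% to 21.8%, and Slc25a31 by 26.2 over 51. Dpep3 and Rpl10l missed the limit narrowly, with differences of -24.9 points (8 cytosines) and -23.1 points (28 cytosines). All 4 genes were therefore lower, and 3 of them within 2 points of the 25-point limit. The share of the early level that remained was 72.7% in Dpep3, 26.3% in Tex101, 26.4% in Slc25a31 and 10.1% in Rpl10l. Which genes passed depended on the setting. Without CCGG cytosines Dpep3 was at -26.6 points, and with the median over cytosines Rpl10l passed (-28.0) in place of Slc25a31 (-21.9), which also fell short within 250 bp of the start (-22.4).

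The late ahESC library differs from the early one in more than passage. It has values at 4124 unplaced positions of chromosome Y, where the early library has 0, and the strands of CCGG sites differ in it by 20.1 points on average, against 7.25 in the early library. Its median over all promoters was 22.7%, against 7.67% in the early library, over cytosines that could be kept through the late library alone. The part of this library difference in the falls was not tested. Over the cytosines measured in all 12 libraries, none of which is a known CCGG cytosine, Rpl10l stood at 25.7% early and 0.588% late (24 cytosines) and Slc25a31 at 29.2% and 4.15% (11 cytosines).

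In phESCs none of the 4 genes passed 25 points, against 1.01% of 1478 promoters that were lower and 0.0677% that were higher. The differences were -18.6 points in Dpep3 (6 cytosines), -9.93 in Tex101 (8), -6.27 in Slc25a31 (42) and -2.75 in Rpl10l (24). Slc25a31 and Rpl10l started at 19.6% and 9.61% over these cytosines, so a fall of 25 points was not possible there. The share that remained lay between 68.1% and 76.4% in the 4 genes. The late phESC library measured few of the Tex101 cytosines, 12 of 43, and none of the known CCGG cytosines.

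**Figure D2:**
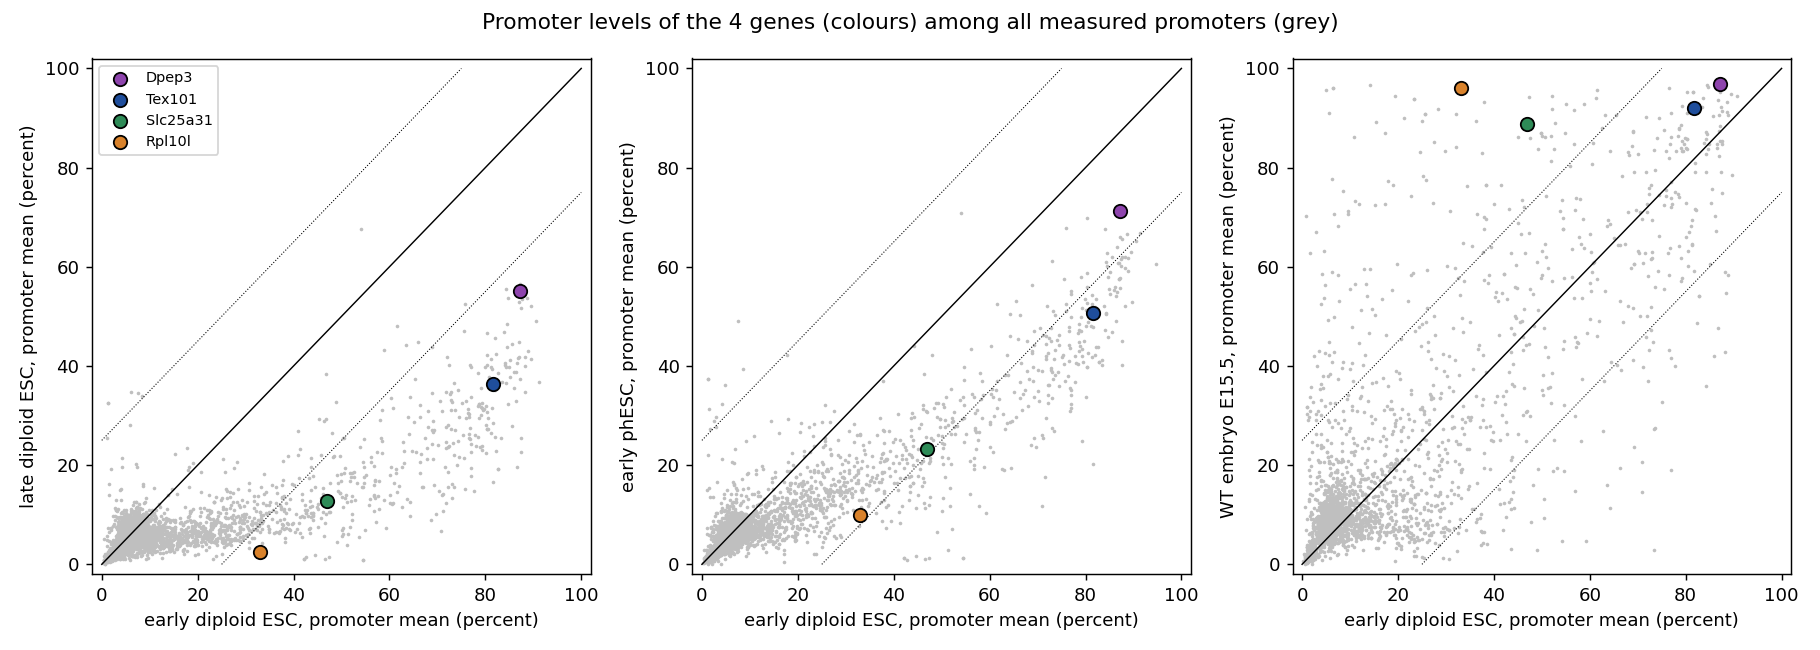
Promoter means in percent of late diploid ESCs, early phESCs and the WT E15.5 embryo (y axes, left to right) against early diploid ESCs (x axes); grey points are all measured promoters, coloured points the 4 genes, the solid line marks equal levels and the dotted lines a difference of 25 points. The 4 genes lie below the lower dotted line in the first panel, and above the solid line in the third, while in the second Tex101 lies below the lower dotted line and the other 3 genes between it and the solid line.

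At early passage the haploid types were set beside diploid cells and beside each other. Early ahESCs were close to early diploid cells at all 4 promoters, with differences of -7.57 points in Slc25a31, -7.37 in Rpl10l, -1.93 in Tex101 and 4.05 in Dpep3. None passed 25 points, as in nearly all promoters (0.205% of 3407 lower and 0.0294% higher). Early phESCs were lower than diploid cells at all 4. There 1 of the 4, Tex101, was lower by at least 25 points, against 7.38% of 3415 promoters lower and 0.351% higher.

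The differences between early phESCs and early diploid cells were -30.9 points in Tex101 (38 cytosines), -23.9 in Slc25a31 (64), -23.2 in Rpl10l (28) and -16.01 in Dpep3 (8). Relative to the diploid level, phESCs had 29.9% in Rpl10l, 49.1% in Slc25a31, 62.2% in Tex101 and 81.6% in Dpep3. Tex101 had the largest gap in points and Rpl10l the largest in proportion. Single cytosines were lower in phESCs in 38 of 38 for Tex101, 8 of 8 for Dpep3, 61 of 64 for Slc25a31 and 28 of 28 for Rpl10l.

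Against early ahESCs, the phESC differences were -29.0 points in Tex101, -20.1 in Dpep3, -16.3 in Slc25a31 and -15.8 in Rpl10l. Again 1 of 4, Tex101, passed 25 points, against 6.14% of 3388 promoters lower and 0.266% higher. The comparisons at early passage share libraries with each other, and those with diploid cells share the early diploid library with the passage comparison.

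The ESC types were also compared at late passage. Late ahESCs differed from late diploid cells by -14.0 points in Tex101 (14 cytosines) and by 11.3 in Dpep3 (8), in opposite directions. Slc25a31 (-2.84) and Rpl10l (0.11) hardly differed, and none of the 4 passed 25 points, against 0.0603% of 3317 promoters lower and 1.39% higher. Late phESCs were within 5 points of late diploid cells at each gene, with 0 of 4 past 25 points (0.137% of 1455 promoters in either direction). The largest of these differences was 4.55 points, in Rpl10l. At each of the 4 genes the late levels of the 3 types thus lay closer together than the early levels, and those of Slc25a31 and Rpl10l were all at 15.2% or less.

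**Figure D3:**
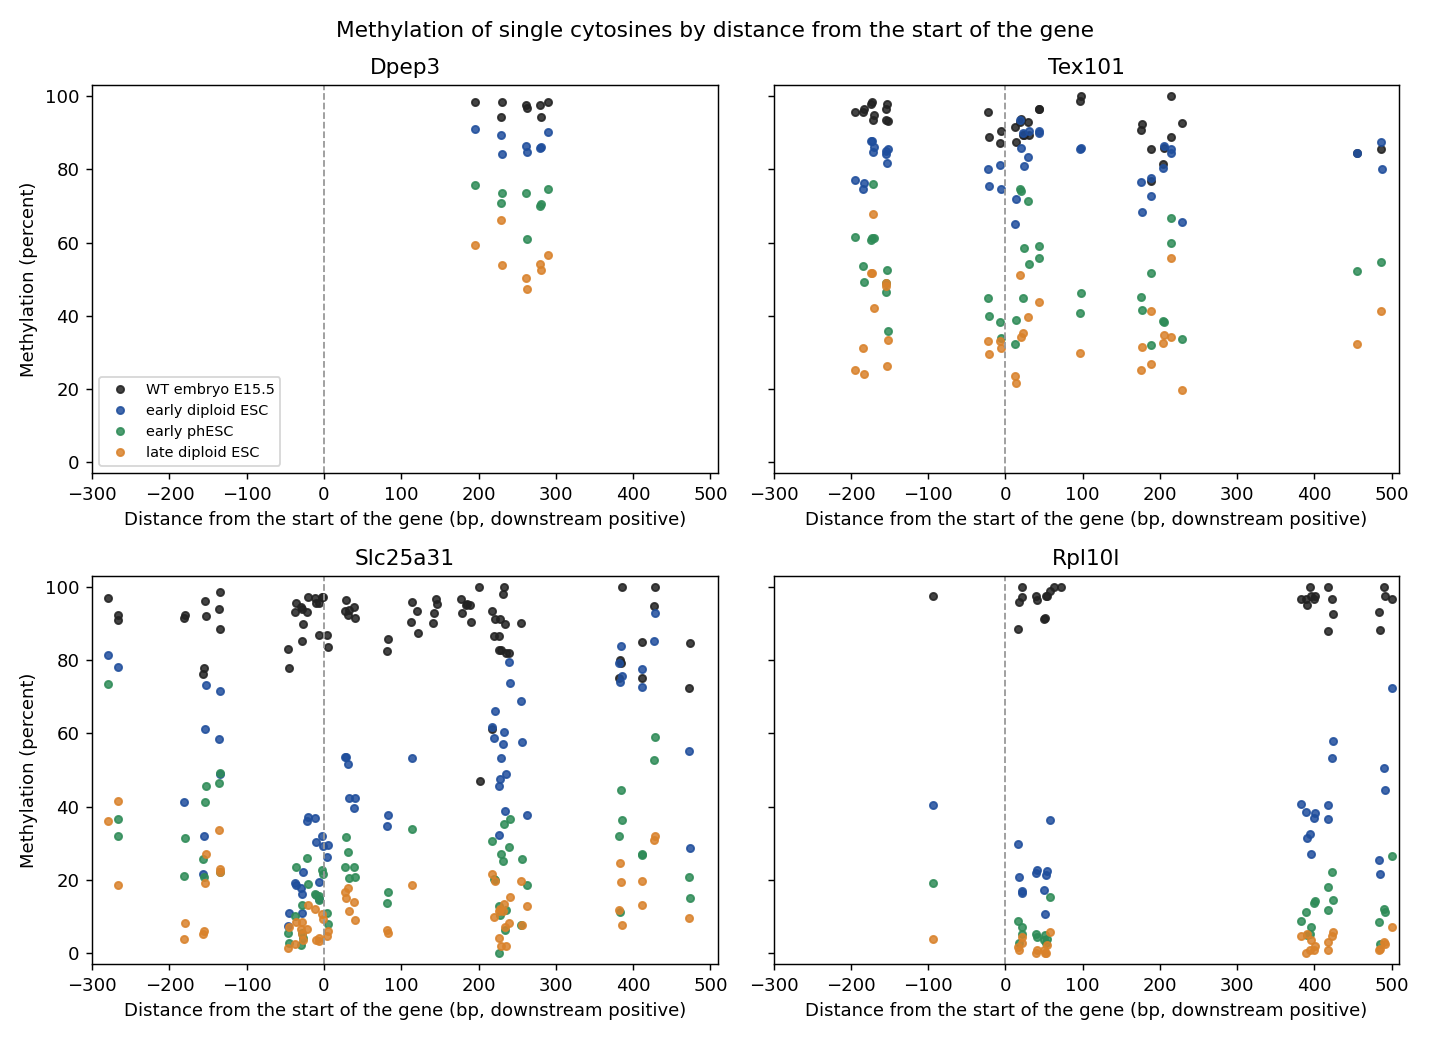
Methylation in percent (y axis) of single kept cytosines by their distance in bp from the start of the gene (x axis, downstream positive, dashed line at the start) in the WT embryo (black), early diploid ESCs (blue), early phESCs (green) and late diploid ESCs (orange). In Slc25a31 and Rpl10l the blue points dip near the start while the black points stay near the top. The Slc25a31 cytosine at 257 bp, which is not a CpG, is not drawn.

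Within a promoter, the methylation of early ESCs depended on the position at Slc25a31 and Rpl10l. Over cytosines measured in early and late diploid cells, early ahESCs, early phESCs and the WT embryo, Slc25a31 in early diploid cells had 51.0% at -250 to -101 bp (8 cytosines), 22.4% at -100 to -1 bp (16), 41.1% in the next 100 bp (10), 54.1% at 100 to 249 bp (13) and 69.5% at 250 to 500 bp (11). The dip lay just upstream of the start, in the printed stretch that holds 17 CpGs. The WT embryo had no such dip there, with 92.0% at -100 to -1 bp and 81.0% at 250 to 500 bp. The last bin includes the cytosine at 257 bp that is not a CpG, with 0% in early diploid cells and 40% in the WT embryo.

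Early ahESCs and early phESCs had their lowest Slc25a31 value in the same bin, at 16.96% and 13.7%. Late diploid cells did too, at 6.66%, against 17.6% at -250 to -101 bp and 17.3% at 250 to 500 bp. Rpl10l had 21.5% in the first 100 bp (11 cytosines) and 40.6% at 250 to 500 bp (16) in early diploid cells, against 95.6% and 95.8% in the WT embryo. In late diploid cells those Rpl10l values were 1.78% and 2.89%, both near 0. Rpl10l was thus level between its 2 bins in the embryo, while Slc25a31 was lowest there in the bin that was highest in early diploid cells.

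Tex101 showed no comparable dip in early diploid cells. Its bins lay between 77.5% and 83.1% in early diploid cells, between 31.8% and 41.0% in late diploid cells and between 88.2% and 95.7% in the WT embryo. Early phESCs were lower at -100 to -1 bp (39.3%, 4 cytosines) than at -250 to -101 bp (55.2%) and in the next 100 bp (54.1%). Early ahESCs had 70.6% there, against 81.0% and 83.5%. Dpep3 had 88.2% and 86.7% in early diploid cells in its 2 bins.

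The embryos were then compared. BM, BP and WT embryos had similar levels at each gene, and no difference was over 2.44 points in either direction. Between BM and WT embryos the differences were -0.81 points in Tex101 (38 cytosines), -0.73 in Dpep3 (8), 1.92 in Slc25a31 (73) and 0.60 in Rpl10l (28). None of the 4 passed 25 points, while 0.118% of 3380 promoters were lower and 5.18% higher in BM.

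Between BP and WT embryos they were 0.40 points in Tex101, 0.39 in Dpep3, 1.41 in Slc25a31 and -1.84 in Rpl10l. Again 0 of 4 passed, against 0.521% of 3072 promoters lower and 0.488% higher. BM and BP embryos differed most at Rpl10l, by 2.44 points, with 0 of 4 past 25 points (0.195% of 3076 lower and 4.94% higher). High methylation of the 4 promoters was thus measured in embryos of each parental origin.

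Embryos were also set against early diploid ESCs. Rpl10l was higher in the WT embryo by 62.7 points (28 cytosines) and Slc25a31 by 42.2 points (61), so 2 of 4 were higher by at least 25 points, against 4.42% of 3396 promoters, and 0 of 4 were lower, against 2.15%. Tex101 and Dpep3 were higher by 10.3 and 9.71 points and were already above 80% in early ESCs. In Rpl10l 27 of 28 single cytosines were higher by at least 25 points, and in Slc25a31 47 of 61 were.

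In the brain, the adult BM and WT libraries were close at each gene, with differences from -1.71 points in Tex101 to 0.65 in Rpl10l. None of the 4 passed 25 points, and 0% of 3515 promoters did in either direction. The WT adult brain differed from the WT embryo by -11.6 points in Tex101 (18 cytosines), -4.66 in Slc25a31 (60), -0.11 in Dpep3 (8) and 1.61 in Rpl10l (28), with 0 of 4 past 25 points (0.695% of 3308 promoters lower and 4.9% higher). Between the BM adult and the BM E19.5 brain, 1 of the 4, Tex101, was lower by at least 25 points, against 2.19% of 2963 promoters lower and 0.405% higher.

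That Tex101 difference, -41.9 points, rested on 6 shared cytosines, and it was -19.6 points with each library over its own cytosines. At 214, 97 and 20 bp the adult brain had 11.3%, 25.5% and 12.8%, against 95.2%, 96.5% and 98.96% at E19.5. At 204, 188 and 176 bp the adult brain had 80.9%, 87.8% and 95.6%. The difference was therefore uneven: 3 cytosines were far lower and the other 3 were within 10 points of the E19.5 brain. Opposite the low cytosines at 97 and 20 bp, the other strand had 89.6% and 96.7% in the adult BM brain. Whether Tex101 lost methylation between these ages was not tested. Slc25a31 differed by -16.2 points over 19 cytosines, and Dpep3 (-1.68) and Rpl10l (0.65) hardly differed.

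The low cytosines of the adult brains lay opposite high ones wherever the other strand was measured. Of 91 kept cytosines of the 4 genes measured in the BM adult brain, 12 were under 60%, a limit set after the values were seen, and the same 12 were under it in the WT adult brain, of 117. Of these 12, 9 were in CCGG and 3 had no known sequence context, which include the Tex101 cytosines at 214 and 97 bp. In the WT adult brain the opposite strand was measured at all 12 and stood between 82.0% and 98.0%, and in the BM adult brain it was measured at 11 and stood at 88.1% or more. For example, the Tex101 CCGG at 20 bp had 17.6% on one strand and 97.4% on the other, and the Slc25a31 CCGG at -1 bp had 26.6% and 91.5%.

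In the embryos and the E19.5 brain no kept CCGG cytosine of the 4 genes was under 60%. The 20% limit itself left out 3 CCGG cytosines that were low in every library that measured them. The Rpl10l cytosine at 57 bp had 8% in the WT embryo, where its opposite strand had 98.8%, and 11.9% in the BM and 17.3% in the WT adult brain. The Dpep3 cytosine at 196 bp had 6.67% and 19.4% in the adult brains, and the Rpl10l cytosine at -93 bp had 9.05% and 19.6%. A low strand opposite a high one was thus also measured in the WT embryo, and the limit raised the levels given here. With no such limit, Rpl10l had 88.3% in the BM adult, 88.5% in the WT adult brain and 91.0% in the WT embryo. These means cover the CpG cytosines of its known sequence (chr12:67384366-67385638), which reaches beyond the promoter window, so limit and region both differ. The limit also left out a CpG cytosine outside CCGG, at 62 bp, with 10% in the WT embryo and 100% on its other strand. Over the kept cytosines, the mean strand difference at CCGG pairs was 71.3 points in the BM adult (9 pairs) and 67.3 in the WT adult brain (9), 20.1 in late ahESCs (8), and between 2.53 and 9.18 in the 8 other libraries that measured such pairs. These 3 libraries and late phESCs were also the ones with values at unplaced chromosome Y positions. The part of what sets these libraries apart in the strand differences was not tested.

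**Figure D4:**
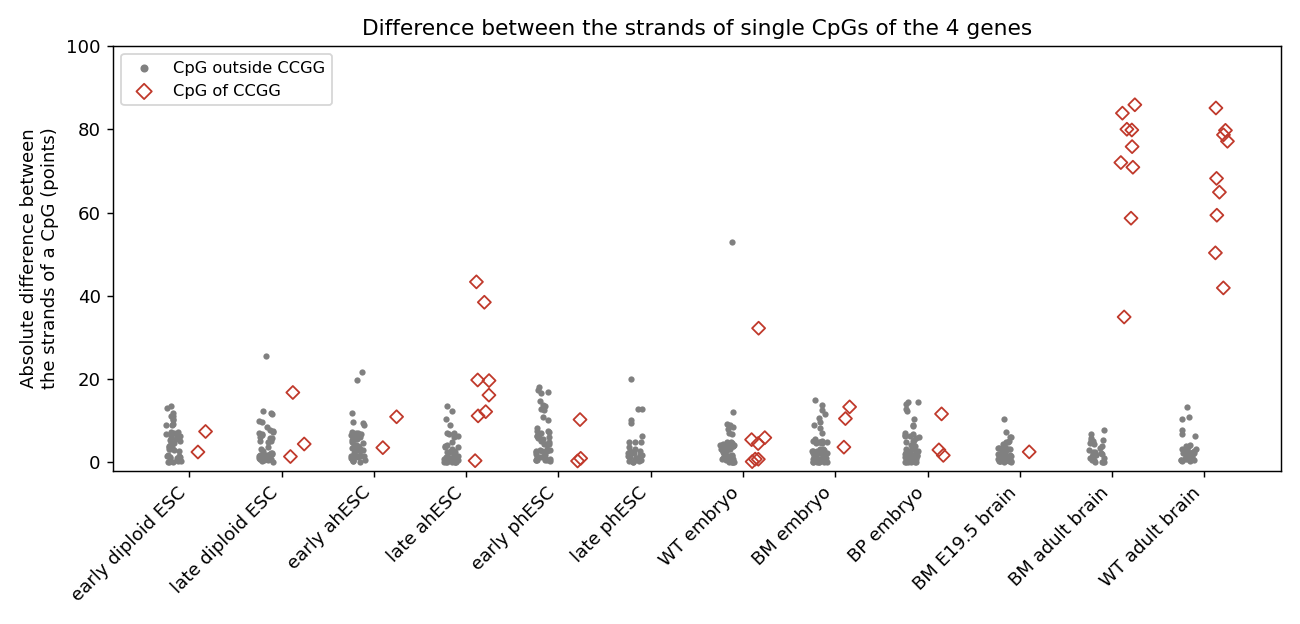
Absolute difference in percentage points between the 2 strands of single CpGs of the 4 genes (y axis) in each library (x axis), for CpGs of known sequence outside CCGG (grey points) and CpGs of CCGG (red diamonds). The adult brains have 9 diamonds each, from 34.9 points upward in the BM and 41.9 in the WT brain, and their grey points lie below all of these.

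Without the known CCGG cytosines, the BM and WT adult brains stood at 96.2% and 96.7% in Dpep3, at 90.9% and 92.4% in Slc25a31, at 97.7% and 97.4% in Rpl10l and at 78.5% and 82.3% in Tex101. Over the cytosines measured in all 12 libraries the 2 adult brains had 88.1% and 88.4% in Tex101 (3 cytosines), against 91.6% in the E19.5 brain. The 3 Tex101 cytosines are those at 204, 188 and 176 bp that stayed high above, so this is no further observation on that gene. Slc25a31 had 92.6% and 91.8% over 11 cytosines measured in all libraries, against 93.0%.

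Related genes gave a mixed picture. Levels here are means over the CpG cytosines in the known sequence of a gene, with no minimum level. Slc25a4, the carrier of heart and muscle mitochondria and the relative of Slc25a31 used outside the germline, had 1.16% to 4.06% in all 12 libraries. Slc25a5, the X-linked carrier of most dividing cells, had 0.385% to 5.04% in ESCs, 20.6% in the WT embryo, 47.6% in the BM and 42.2% in the BP embryo. The sex of the embryos is not given, so for this X-linked gene parental origin and sex cannot be told apart. Slc25a31 over the same kind of cytosines had 41.6% in early diploid cells and 90.0% in the WT embryo.

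The 2 other dipeptidase genes were not alike. Dpep1, a dipeptidase of kidney and gut, had 76.7% in early and 34.7% in late diploid cells and 41.1% in the WT embryo, so the embryo was below early ESCs, unlike Dpep3. Dpep2, next to Dpep3 on chromosome 8, had 57.3%, 8.68% and 78.8% in those libraries, over 5 cytosines. Lypd3, which encodes a surface protein of the Ly6/uPAR family and lies near Tex101 on chromosome 7, had 29.8%, 11.9% and 25.9%. In the brains Dpep1 stood at 80.5% (BM E19.5), 53.3% (adult BM) and 65.8% (adult WT), all above its WT embryo level. The known sequences of these relatives differ in length. The sequences of Rpl10, Cd177, Lypd4, Lypd5 and Lypd10 could not be placed, and they were not analysed here.

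A list of 40 other germline genes, chosen with earlier results of these data known, had 18 with a measured promoter. In diploid passage 10 of the 18 were lower by at least 25 points, against 11.3% of all promoters, and 0 higher, against 0.0883%. Their median difference was -26.4 points, where the median of the 4 genes was -33.5. All promoters started at a median of 6.94% in early diploid cells, and the list at 37.8%. Most of the background could therefore not fall by 25 points, and the part of the starting level in this contrast was not tested. The same limit holds in ahESCs, where the early medians were 7.67% and 30.8%. There 4 of 17 listed promoters were lower, against 7.17%, with a median of -16.4 points where the median over all promoters was 12.8. That background includes cytosines that could be kept through the late ahESC library alone. Over all promoters late ahESCs were also above late diploid cells, by a median of 14.5 points. The parts of passage and of the library in the 12.8 points were not tested. In phESCs 0 of 16 were lower, against 1.01%, with a median of -5.39 points. From early diploid cells to the WT embryo 14 of 18 were higher, against 4.42%, with a median of 43.1 points, against 1.78 over all promoters.

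The list had a median of 37.8% in early diploid cells, 11.1% in late diploid cells and 83.5% in the WT embryo. Dpep3 and Tex101 both lay above the highest listed promoter in early diploid cells, Tdrd9, a piRNA pathway helicase, at 80.3%. In late diploid cells Dpep3 still did (46.5% in Tdrd9) and Tex101 did not, while Rpl10l at 2.49% lay above only Hormad2 (1.83%) and Tex14 (1.59%) there. In the WT embryo, Dpep3 (96.9%) was above the highest of the list, Tex14 (96.1%), a gene for the bridges between germ cells. The lowest there was Tdrd6, a gene of the germ cell chromatoid body, at 27.5%.

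For each gene the most alike promoters were sought by the root mean square difference over the 12 libraries, among 1036 or 1037 promoters with at least 10 kept cytosines and a level in each library. Slc25a31 was closest to 1190028D05Rik (4.21 points), Sohlh2 (4.60) and 1700029P11Rik (4.73). Rpl10l was closest to H2bc1 (5.78) and to 4930467D21Rik and Naa11, which share 1 promoter (6.48). Tex101 was closest to Magea8 (5.91) and to 1700027A15Rik and Tnp1, which share 1 promoter (6.10). Dpep3 was closest to 1700094J05Rik (5.04), Rgsl1 (6.49) and LOC115489011 (7.83).

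Distances between the 4 genes were larger, but these promoters were picked as the closest of many candidates, so that contrast follows from the search. Slc25a31 and Rpl10l were the closest pair, at 9.90 points, followed by Tex101 and Dpep3 at 16.03, and Dpep3 and Rpl10l were the farthest apart, at 40.1. The pairs thus follow the ESC levels, since all 4 genes were high in embryos and brains.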

How the data were processed

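Per the submitters' processing notes, reads were handled with Trim Galore and Bismark 0.13.1 on mm9, and the authors deposited 1 table of methylation percentages for 8119606 cytosines in 12 libraries, with missing values marked N. Per the labels' protocols, DNA was cut with MspI. The table gives no read depth and lists cytosines in CG and GC. Each library has values at 3773871 to 5903648 cytosines.

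RefSeq promoter sequences (GRCm38.p6) and GENCODE M21 exons were placed on mm9 by an exact match of their CG and GC pattern to at least 8 listed positions. No coordinate was converted. Of 32851 promoter sequences 10679 were placed, for 9500 genes, and at a false shift of 2017 bp 0 of 1909 matched. Differences needed at least 3 shared cytosines. Genes and lists were chosen with earlier results of these data known. Values named are those of the 4 genes, all measured relatives, the extremes of the germline list and the 3 most alike promoters per gene.

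The work was done in Python 3.11.15 with pandas 2.3.3, NumPy 2.4.6, numba 0.67.0 and Matplotlib 3.10.9.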

Additional observations from a re-analysis of the deposited data

How the results depend on the processing

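Other settings gave 478 differences of the 4 genes. The 88 alternatives of differences past 25 points all kept their sign, while smaller differences were not checked for a change of sign. Of 150 counts of genes, 136 were within 1.5 times of the count given above. With all listed cytosines, which include the C of GC near 0%, 0 of 4 genes were lower in diploid passage, 1 in ahESC passage, 0 in early phESCs against diploid cells, 0 against ahESCs and 0 in the adult against the E19.5 BM brain, and 1 was higher in the WT embryo than in early diploid cells. The median of the 48 levels, 81.2%, became 40.7% with all listed cytosines and 89.7% with the median over cytosines. A limit of 20 points gave 4 genes lower in ahESC passage, 3 in early phESCs against diploid cells and 2 against ahESCs, and a limit of 30 points gave 1 in ahESC passage and 0 in phESCs against ahESCs. Within 250 bp of the start 1 gene was lower in ahESC passage, and Rpl10l lost its call in diploid passage (-21.1 points). The median over cytosines gave 2 in early phESCs against diploid cells and, in ahESC passage, Rpl10l in place of Slc25a31. With each library over its own cytosines, 0 were lower in the adult BM brain. No paired analysis was possible because each group has 1 library, and no library could be left out. Read depth is unknown and limits every value to an unstated degree.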

Other observations

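Among the other germline promoters measured, Tex14 stood at 6.50% in early diploid cells and 96.1% in the WT embryo, a wider gap than at Rpl10l, and Hormad2, a gene of the meiotic chromosome axis, stood at 6.19% and 58.9%. Tdrd6 stood at 33.3% and 27.5% in those libraries and at 6.98% in the BP embryo. The cytosines nearest to the 20% limit had their highest value at 20.5% inside and 8.33% outside for Tex101, 22.3% and 19.4% for Dpep3, 20% and 16.7% for Slc25a31, and 22.4% and 19.6% for Rpl10l.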
